A study of Homo sapiens with 6 samples.

Results

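Interferon-stimulated genes were followed in MIA PaCa-2, an established cell line from a human pancreatic ductal carcinoma, with and without triptolide. The group comprises 42 genes of the antiviral interferon response, chosen by symbol: transcription factors, RNA sensors, the IFIT, OAS, MX and IFITM families, the ISG15 system and other effectors. Each symbol matched 1 Ensembl identifier, so all 42 were found among the 35716 genes of the count table. Of these, 35 had enough counts to be tested and 7 did not.

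The series holds 6 RNA-seq libraries of polyadenylated RNA. The labels give a wild-type genotype for all of them. The untreated group is 3 libraries of cells in DMEM with 10% FBS. The triptolide group is 3 libraries of cells that received 10 nM of the compound for 24 h. Serum and time, 10% FBS and 24 h, are the same for all 6 libraries. Triptolide is a plant diterpenoid that targets XPB, a helicase of TFIIH, and thereby inhibits transcription by RNA polymerase II. No interferon, virus or vehicle is named in the labels of either group, and the design text uses the word control for the triptolide libraries. A single cell line was used. Whether the 3 libraries of a group stem from independent cultures is not in the labels, and the tests therefore see only library-to-library spread, part or all of which may be technical.

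Total counts per library ran from 16302961 to 23262713. Over the 15202 genes tested, 1527 rose and 884 fell with triptolide (edgeR, adjusted p under 0.05). Among the markers of the labelled cell type, KRT8, KRT18 and VIM were abundant (KRT18 and VIM fell) and EPCAM and CDH1 were near 0 in all libraries. KRT7 and KRT19, also listed, were not called, so 2 of 5 tested genes were lower and 0 higher. The 7 markers summed to 4383 to 6527 counts per 1000000 counts untreated and 3242 to 3950 with triptolide. Markers of leukocytes, cells known for making interferon, summed to 3.87 to 4.57 counts per 1000000 counts untreated and 6.91 to 11.3 with triptolide. Of 15 leukocyte markers with a row, 3 could be tested and 2 of these, CSF1R and CD74, rose, while CD2, CD68, LILRA4 and CLEC4C had no count in any untreated library. Markers of placental trophoblast summed to 131 to 145 untreated and 697 to 1091 with triptolide, with 14 of 16 tested genes higher, and HSD3B1, ERVFRD-1, GCM1 and INSL4 at 0 in all untreated libraries. TFAP2A alone held 117, 121 and 106 of the untreated sums and was not called (edgeR adjusted p = 0.55). Most of the rise in the sum lay in CSH1 (mean 4.92 untreated and 430 with triptolide) and CSH2 (2.22 and 157). Markers of fibroblasts and mesenchyme summed to 429 to 505 untreated and 319 to 434 with triptolide, with 4 of 9 tested genes lower (COL1A1, POSTN, THY1 and ACTA2) and 0 higher in edgeR (also 0 at an unadjusted p under 0.05), and FAP at 0 in all triptolide libraries. Most of these sums was COL1A2, with means of 323 untreated and 329 with triptolide (edgeR adjusted p = 0.936). The part of these markers in the results that follow was not tested, and in bulk RNA fewer cells of a type and less RNA per cell cannot be told apart.

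Type I interferons bind the receptor pair IFNAR1 and IFNAR2, whose kinases JAK1 and TYK2 phosphorylate STAT2 and other STAT proteins. STAT2 and IRF9 are subunits of the complex ISGF3, which binds a short DNA element, the interferon-stimulated response element, upstream of its target genes. Many of these targets block viral replication, and several, among them STAT2, IRF7, IRF9 and the RNA sensors, feed back into the pathway itself. In carcinoma cells a low tonic level of the programme can persist without added interferon.

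The response element was looked for in the group's RefSeq promoter sequences (GRCh38.p14, 250 bases before to 50 bases after each annotated start). The core, GAAA and a second GAAA with any 2 bases between them, was searched on both strands, and on the reverse strand it reads TTTC, 2 bases, TTTC. Of the 42 genes, 32 had an entry, and 22 of these (68.75%, exact 95% binomial interval 49.99 to 83.9%) held the core. Over all 27305 genes with an entry the share was 4.38%. The genes had been listed as interferon-response genes, so the difference describes the list. The neighbours PARP9 and DTX3L, which are transcribed away from each other, share 1 and the same match. A core with 3 bases between its arms was found in 6 of the 32 (18.75%), against 3.54% of all genes, and one with 1 base between them in 11 (34.4%), against 3.87%. Different spacings can match overlapping bases of the same stretch.

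The stretches below are from a selection of genes with a match, called or not. Each is 60 bases, read in the direction of the gene, with matches to the core or its reverse in capitals. IFIT3, which fell with triptolide, has 2 annotated starts with 2 matches each, on the plus strand of GRCh38.p14 at chr10:89327833-89327892, 164 to 105 bases before the first start, and at chr10:89332431-89332490, 98 to 39 bases before the second. ISG20, which rose, has 1 match in a stretch of the plus strand at chr15:88638922-88638981, 94 to 35 bases before its start. IFIT1 (plus strand, chr10:89392488-89392547), ISG15 (plus strand, chr1:1013362-1013421) and IFITM1 (plus strand, chr11:313975-314034) were not called in either direction. In ISG15 the 2 matches overlap. IFITM1 has a further match, not in capitals, which begins at the last base shown and runs across its start. RSAD2 (plus strand, chr2:6877607-6877666) had too few counts to test.
IFIT3, first start: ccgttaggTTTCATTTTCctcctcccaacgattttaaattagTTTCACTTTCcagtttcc
IFIT3, second start: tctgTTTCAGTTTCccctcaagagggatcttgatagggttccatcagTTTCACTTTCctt
ISG20: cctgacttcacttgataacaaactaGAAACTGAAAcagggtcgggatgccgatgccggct
IFIT1: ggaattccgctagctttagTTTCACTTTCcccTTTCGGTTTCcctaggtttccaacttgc
ISG15: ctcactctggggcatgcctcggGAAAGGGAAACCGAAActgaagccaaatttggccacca
IFITM1: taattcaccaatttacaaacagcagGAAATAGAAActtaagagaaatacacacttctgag
RSAD2: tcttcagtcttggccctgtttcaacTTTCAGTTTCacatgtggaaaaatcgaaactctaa

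A match is a description of letters and not a site shown to be bound in these cells. The core was present in ISG20 and absent from the entry of STAT2, the other gene that rose, and present in IFIT3, the only gene that fell with an entry in the table. It was also found in 17 of the 23 tested genes with an entry that were not called and in 3 of the 6 with too few counts to test. The motif thus occurred among genes that rose, genes that fell and genes that were not called.

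Interferon-stimulated genes showed no common direction with triptolide on the TMM scaling of the main fit. Each level is a share of its library's scaled counts, so a rise or fall of all RNA in the cells would not be seen. Directions here are therefore not statements about transcript amounts per cell. The balance of directions also moved with the scaling, as given below for ribosomal protein genes. STAT2, a subunit of ISGF3, and ISG20, an exonuclease that degrades RNA, rose 1.46-fold and 1.63-fold. IFIT3, a scaffold of the IFIT antiviral complex, OASL, a synthetase-like protein that enhances RNA sensing, and IRF2, a repressor of interferon-responsive promoters, fell 1.70-fold, 1.63-fold and 1.58-fold. The other 30 tested genes passed in neither direction. The 2 genes that rose are 5.71% of the 35 tested, where 10.0% of all tested genes rose, and the 3 that fell are 8.57%, where 5.82% of all tested genes fell (15.9% in either direction). At an unadjusted p under 0.05 the counts were 6 higher and 6 lower, and with DESeq2 3 rose (9.9% of all tested genes) and 3 fell (7.39%) at the adjusted threshold.

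On the TMM scaling, fitted log2 fold changes were above 0 in 18 of the 35 genes and below 0 in 17. Their median was 0.05, and the middle of the distribution ran from -0.34 to 0.39 at its quartiles. Over all tested genes the median was -0.004 and the quartiles were -0.28 and 0.34. The range over the interferon-stimulated genes was -0.77 to 0.70, so 0 of 35 reached a 2-fold difference, while 10.1% of all tested genes did. The 95% interval of the fold change lay within 2-fold in both directions for 25 of the 35 genes (71.4%, and 66.4% of all tested genes). The groups did not overlap in 10 genes that were higher and 6 that were lower with triptolide, or 45.7% of the 35, where the share over all tested genes was 36.7% (19.8% higher and 16.9% lower). Scaled on 78 ribosomal protein genes, which moved the median of all tested genes by 0.24 on the log2 scale, the median of the 35 was 0.27. In that scaling IFITM1 and ISG20 rose and 0 genes fell (edgeR, 9 higher and 0 lower at an unadjusted p under 0.05), where 9.37% of all tested genes rose and 0.822% fell. Without untreated replicate 2 edgeR called 0 of the 35 in either direction (4 higher and 5 lower unadjusted), where 5.99% of all tested genes rose and 2.56% fell.

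**Figure D1:**
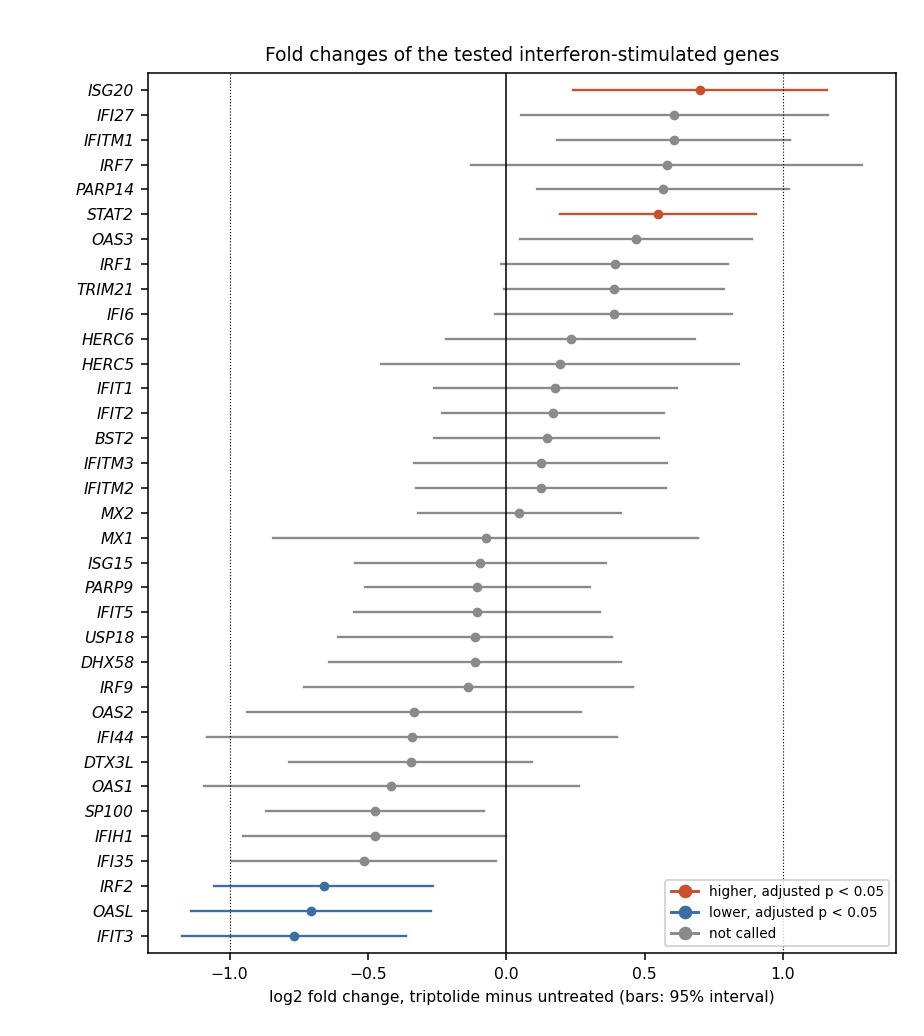
Log2 fold change, triptolide minus untreated, of the 35 interferon-stimulated genes tested, with the 95% interval as bars and dotted lines at a 2-fold difference. Changes are on the TMM scaling. The points run from -0.77 for IFIT3 to 0.70 for ISG20, 18 lie above 0 and 17 below, and the 2 genes that rose and 3 that fell are coloured.

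In what follows, levels are counts per 1000000 counts (CPM) on TMM-scaled library sizes, listed for replicates 1, 2 and 3, with the mean ± SD over 3 libraries, and fold changes are log2 with their standard error (SE) from edgeR. The 6 transcription factors of the response were all tested. STAT2 (ENSG00000170581) was at 17.6, 16.3 and 15.0 CPM untreated and at 23.6, 25 and 23 CPM with triptolide. All 3 triptolide libraries lay above all 3 untreated ones. The mean went from 16.3 ± 1.31 to 23.9 ± 1.01 CPM, a log2 change of 0.55 ± 0.16 (SE; edgeR adjusted p = 0.0396). STAT2 lost its call when untreated replicate 1, 2 or 3 (edgeR adjusted p = 0.0969, 0.164 and 0.0966) or triptolide replicate 2 or 3 (0.0931 and 0.108) was left out, and also without the low-count filter (0.0868) and on the ribosomal protein scaling (log2 change 0.76, 0.118). IRF2 (ENSG00000168310) was at 11.1, 12.4 and 11.2 CPM untreated and at 7.18, 8.09 and 6.67 CPM with triptolide. No triptolide library reached the lowest untreated one, and the mean went from 11.6 ± 0.688 to 7.31 ± 0.722 CPM. Its log2 change was -0.66 ± 0.18 (SE; edgeR adjusted p = 0.029), and the call was lost when untreated replicate 1 or 2 (0.0725 and 0.13) or triptolide replicate 3 (0.13) was left out. On the ribosomal protein scaling the change of IRF2 was -0.44 (edgeR adjusted p = 0.41).

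IRF1, an activator that shares its DNA element with IRF2, was at 10.4, 10.1 and 12.7 CPM untreated and at 12.8, 16.8 and 13.9 CPM with triptolide. The groups were separated, by a narrow gap, and the log2 change of 0.39 ± 0.19 (SE) did not pass (edgeR adjusted p = 0.18). SP100, a nuclear body protein, was at 23.6, 22.8 and 25.9 CPM untreated and at 13.9, 18.9 and 19.2 CPM with triptolide. Here every triptolide library was the lower, with replicate 1 lowest, and the log2 change of -0.47 ± 0.18 (SE) also did not pass (edgeR adjusted p = 0.0963). IRF7, the amplifier of interferon transcription, had means of 0.871 ± 0.292 and 1.31 ± 0.147 CPM (edgeR adjusted p = 0.251). IRF9, the DNA-binding subunit of ISGF3, had means of 2.09 ± 0.52 and 1.90 ± 0.288 CPM with overlapping groups (edgeR adjusted p = 0.774). Thus of the ISGF3 subunits in the group STAT2 rose and IRF9 was not called, and whether their changes differ was not tested.

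The RNA sensors were scarce. IFIH1, which encodes MDA5, a sensor of long double-stranded RNA, had 3.78 ± 0.436 CPM untreated and 2.71 ± 0.181 CPM with triptolide (log2 change -0.48 ± 0.22, SE; edgeR adjusted p = 0.161), and its groups did not overlap. DHX58, which encodes the regulator LGP2, had 3 ± 0.548 and 2.79 ± 0.428 CPM (edgeR adjusted p = 0.792). RIGI, the sensor of RNA ends, had only 17 counts over the untreated and 29 over the triptolide libraries and could not be tested.

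**Figure D2:**
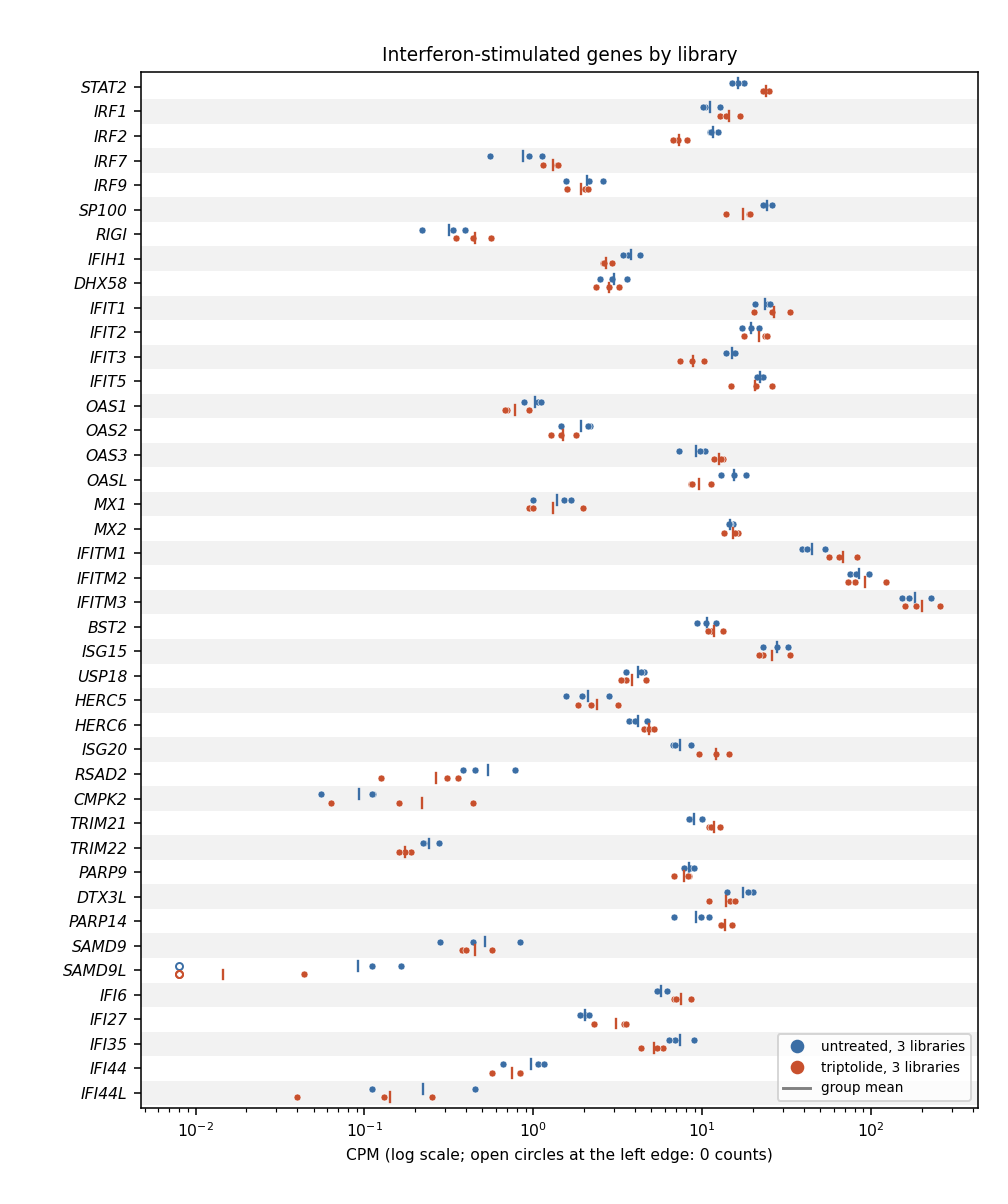
CPM of all 42 interferon-stimulated genes in each library on a log axis, ordered by role, with open circles for a count of 0 and a tick at each group mean. Most genes have interleaved blue (untreated) and red (triptolide) points, and the levels span from SAMD9L, at 0 in 3 libraries, to IFITM3, at 153 to 255 CPM.

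The IFIT proteins bind viral RNA with foreign ends, and their genes stand side by side on chromosome 10. IFIT3 (ENSG00000119917) was at 13.9, 15.5 and 15.6 CPM untreated and at 7.43, 10.2 and 8.75 CPM with triptolide. The lowest untreated library exceeded the highest triptolide one. The mean went from 15.0 ± 0.999 to 8.79 ± 1.38 CPM, a log2 change of -0.77 ± 0.19 (SE; edgeR adjusted p = 0.0161), the farthest from 0 in the group. With untreated replicate 2 or triptolide replicate 3 left out IFIT3 did not pass (edgeR adjusted p = 0.0702 and 0.0617), and on the ribosomal protein scaling the change was -0.53 (edgeR adjusted p = 0.288). The other IFIT genes overlapped between groups. IFIT1, the RNA-binding core of the complex, was at 20.6, 24.5 and 25.2 CPM untreated and at 20.2, 33.3 and 26.0 CPM with triptolide (log2 change 0.18 ± 0.20, SE; edgeR adjusted p = 0.591). IFIT2, its apoptosis-linked partner, was at 19.3, 21.8 and 17.1 CPM untreated and at 17.7, 23.5 and 24.1 CPM with triptolide (0.17 ± 0.18, SE; edgeR adjusted p = 0.575). In both, triptolide replicate 1 was near or below the untreated libraries and the other two were near or above them. IFIT5 was at 22.3, 22.8 and 21.1 CPM untreated and at 14.9, 25.9 and 20.7 CPM with triptolide (-0.11 ± 0.20, SE; edgeR adjusted p = 0.767), with triptolide replicates 1 and 2 on either side of all untreated libraries.

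The OAS genes encode synthetases of oligoadenylates, which activate RNase L. OASL (ENSG00000135114), the member of the family without that activity, was at 13, 15.5 and 18.1 CPM untreated and at 11.3, 8.62 and 8.71 CPM with triptolide. The groups did not overlap, and the untreated libraries were the more scattered. The mean went from 15.5 ± 2.58 to 9.53 ± 1.51 CPM, a log2 change of -0.71 ± 0.20 (SE; edgeR adjusted p = 0.0318). OASL did not pass with untreated replicate 2 or 3 left out (edgeR adjusted p = 0.0955 and 0.0836), with triptolide replicate 2 or 3 left out (0.0773 and 0.122) or on the ribosomal protein scaling (log2 change -0.43, 0.407). OAS3, the synthetase with the highest affinity for double-stranded RNA, was at 10.3, 9.75 and 7.32 CPM untreated and at 13.3, 11.7 and 12.9 CPM with triptolide. All triptolide libraries were the higher, and the log2 change of 0.47 ± 0.19 (SE) did not pass (edgeR adjusted p = 0.121). OAS1 had means of 1.02 ± 0.121 and 0.775 ± 0.148 CPM and OAS2 of 1.90 ± 0.388 and 1.5 ± 0.269 CPM, both with overlapping groups (edgeR adjusted p = 0.399 and 0.452).

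The MX genes encode dynamin-like GTPases that trap viral nucleoproteins and capsids. MX2 was at 15.1, 14.6 and 14.3 CPM untreated and at 13.5, 16.4 and 15.6 CPM with triptolide. The groups overlapped, and the log2 change of 0.05 had a 95% interval of -0.32 to 0.41 (edgeR adjusted p = 0.88). MX1, widely used as a marker of interferon exposure, had means of 1.39 ± 0.352 and 1.30 ± 0.576 CPM, and its interval of -0.84 to 0.69 left its direction undetermined at this depth (edgeR adjusted p = 0.911).

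The IFITM proteins sit in membranes and hinder viral fusion, and BST2, or tetherin, holds budding virions at the cell surface. IFITM1 (ENSG00000185885) was at 38.8, 41.4 and 53.2 CPM untreated and at 82.3, 64.6 and 56.3 CPM with triptolide. All triptolide libraries were above all untreated ones, with triptolide replicate 3 just above untreated replicate 3. The mean went from 44.5 ± 7.66 to 67.7 ± 13.3 CPM, a log2 change of 0.61 ± 0.19 (SE; edgeR adjusted p = 0.0524), which missed the threshold. IFITM1 passed in 7 of the 15 alternatives, with an adjusted p of 0.0199 to 0.0482 there, among them DESeq2 (0.0289) and edgeR without untreated replicate 3 (0.0331). IFITM2 was at 75.3, 80.8 and 96.7 CPM untreated and at 122, 80.7 and 72.7 CPM with triptolide (edgeR adjusted p = 0.729). IFITM3 was at 153, 168 and 225 CPM untreated and at 255, 183 and 158 CPM with triptolide (edgeR adjusted p = 0.73). In both, triptolide replicate 1 was the highest library and the other triptolide libraries lay within or below the untreated range. BST2 was at 9.36, 10.5 and 12.1 CPM untreated and at 13.2, 11.3 and 10.9 CPM with triptolide, with overlapping groups (edgeR adjusted p = 0.636). The IFITM genes are similar in sequence, and how the authors counted reads that fit several of them is not stated in the labels. The split of counts among the IFITM genes is therefore uncertain.

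ISG15 is a ubiquitin-like protein, HERC5 attaches it to new proteins and USP18 removes it and restrains the receptor. ISG15 was at 22.8, 27.6 and 32.3 CPM untreated and at 33.2, 22.9 and 21.7 CPM with triptolide. The groups overlapped almost fully, and the log2 change of -0.09 had a 95% interval of -0.55 to 0.36 (edgeR adjusted p = 0.801). USP18 had 4.14 ± 0.537 and 3.83 ± 0.711 CPM, HERC5 2.11 ± 0.636 and 2.39 ± 0.683 CPM, and its relative HERC6 4.14 ± 0.534 and 4.86 ± 0.329 CPM (edgeR adjusted p = 0.779, 0.702 and 0.481). The groups overlapped in all 4 genes.

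ISG20 (ENSG00000172183) was at 6.67, 6.87 and 8.54 CPM untreated and at 14.5, 12.0 and 9.54 CPM with triptolide. All 3 triptolide libraries were the higher, with replicate 3 only a little above the highest untreated library. The mean went from 7.36 ± 1.02 to 12.0 ± 2.47 CPM, a log2 change of 0.70 ± 0.21 (SE; edgeR adjusted p = 0.0419). ISG20 did not pass with untreated replicate 1 or 2 left out (edgeR adjusted p = 0.143 and 0.159), nor with triptolide replicate 1 or 2 left out (0.0649 and 0.0596). RSAD2, which encodes viperin, had 8, 14 and 7 counts untreated and 2, 7 and 9 with triptolide. The depth-corrected ratio for untreated over triptolide was 1.90, with a 95% interval of 1.02 to 3.64 that covers counting error only. RSAD2 was lower in CPM in every triptolide library, by a narrow gap (0.386 in untreated replicate 3 and 0.359 in triptolide replicate 3). Its neighbour CMPK2, a nucleotide kinase of the mitochondria, had 2, 1 and 2 counts untreated and 1, 10 and 4 with triptolide, 10 of the 15 triptolide counts being in replicate 2. Neither was tested.

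TRIM21, an antibody receptor of the cytosol and ubiquitin ligase, was at 8.41, 8.31 and 9.97 CPM untreated and at 12.8, 10.9 and 11.3 CPM with triptolide. The groups did not overlap, and the log2 change of 0.39 ± 0.18 (SE) did not pass (edgeR adjusted p = 0.169). TRIM22, a ligase with antiviral activity, had 13 counts in all untreated and 11 in all triptolide libraries. PARP14, an ADP-ribosyltransferase, was at 9.81, 11.0 and 6.83 CPM untreated and at 12.9, 13 and 15.1 CPM with triptolide, without overlap (log2 change 0.57 ± 0.21, SE; edgeR adjusted p = 0.0858). PARP9 and DTX3L act as a complex that modifies histones and viral proteins, and neither was called. PARP9 was at 8.47, 8.92 and 7.82 CPM untreated and at 6.8, 8.4 and 8.19 CPM with triptolide (edgeR adjusted p = 0.75). DTX3L was at 19.9, 18.7 and 14 CPM untreated and at 11.0, 14.6 and 15.7 CPM with triptolide (edgeR adjusted p = 0.272). Triptolide replicate 1 was the lowest library in both.

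SAMD9 and SAMD9L are paired restriction factors of poxviruses, and SAMD9L had the fewest counts of the 42 genes. SAMD9 had 28 counts untreated and 29 with triptolide. SAMD9L had 0, 2 and 3 counts untreated and 0, 1 and 0 with triptolide, a depth-corrected ratio of 5.90 for untreated over triptolide with a 95% counting interval of 0.66 to 279, so that no difference was detectable at this depth. A count of 0 in 1 library allows up to 3 counts, and intervals and such limits cover counting error only.

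IFI6, a membrane protein that protects against flaviviruses, was at 5.44, 5.43 and 6.17 CPM untreated and at 8.56, 6.78 and 7.03 CPM with triptolide. It was higher in every triptolide library and did not pass (log2 change 0.39 ± 0.20, SE; edgeR adjusted p = 0.204). IFI35, a cytosolic partner of NMI, was at 6.90, 6.32 and 8.98 CPM untreated and at 5.86, 5.43 and 4.31 CPM with triptolide. It was lower in every triptolide library and likewise did not pass (-0.51 ± 0.22, SE; edgeR adjusted p = 0.133). IFI27, among the most inducible genes of the response in blood, had means of 2.02 ± 0.132 and 3.09 ± 0.71 CPM without overlap (edgeR adjusted p = 0.129). IFI44 had 0.963 ± 0.266 and 0.746 ± 0.155 CPM (edgeR adjusted p = 0.537), and IFI44L had 8, 2 and 2 counts untreated and 4, 3 and 1 with triptolide.

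Levels were compared between genes as CPM per kilobase of merged exons (GENCODE 29), a scale that assumes the authors' gene models resemble that release. IFITM3 led the untreated cells with 135 ± 28.4 CPM per kb, followed by IFITM2 with 54.6 ± 7.2, IFITM1 with 41.2 ± 7.10 and ISG15 with 29.3 ± 5.05. The spreads of IFITM2 and IFITM1 overlapped, while IFITM3 stood above both. BST2 (9.52 ± 1.24) and IFI6 (6.57 ± 0.49) came next, and IFIT3, IFIT5, IFIT1 and IFIT2 lay together between 4.73 and 5.68 CPM per kb. At the other end, RSAD2, SAMD9, RIGI, TRIM22, IFI44L, CMPK2 and SAMD9L were at 0.111 CPM per kb or lower. With triptolide IFITM3 was still first (147 ± 37.2 CPM per kb), and IFITM1 (62.7 ± 12.3) and IFITM2 (59.6 ± 17.3) changed places by less than their spread. IFIT3 moved from rank 7 to rank 12 of the 42 and STAT2 from rank 16 to rank 11.

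The IFITM genes made up a large part of the summed CPM, which is not corrected for gene length. The 42 genes summed to 570, 609 and 696 CPM untreated and to 762, 663 and 598 CPM with triptolide, and the ranges overlapped. The IFITM genes held 46.8, 47.6 and 53.9% of that sum in the untreated libraries and 60.3, 49.5 and 48.0% in the triptolide libraries, with triptolide replicate 1 the highest of the 6.

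Genes of the same family or the same locus were compared in pairs as the ratio of their counts within a library, which needs no scaling between libraries. Of 13 listed pairs, 10 had at least 10 counts for both genes in every library, and in 7 the ratio did not overlap between groups. The pairs are not separate, since OAS3 and IFITM1 each enter 2 of the 7, and PARP9 enters 2 of the 10. The share of 36.7% without overlap over all tested genes is for the CPM of single genes, and no such share was computed for ratios. With 3 libraries against 3 the exact two-sided permutation test cannot go below p = 0.1, and all 7 pairs had that value (0.143 after Benjamini-Hochberg adjustment over the 10 pairs). The ratio of IFIT2 to IFIT3 was 1.4, 1.4 and 1.1 in the untreated libraries and 2.38, 2.31 and 2.76 with triptolide. The means of 1.30 ± 0.176 and 2.48 ± 0.241 differ by 0.94 on the log2 scale, the largest difference among the 10 pairs, and the smallest value with triptolide exceeded the largest untreated one. The ratio of OAS1 to OAS3 went from 0.112 ± 0.00859 to 0.0611 ± 0.00931 (log2 difference -0.89), and that of OAS3 to OAS2 from 5.03 ± 1.84 to 8.53 ± 1.17 (0.81). Counts of OAS3 were thus higher relative to both neighbours in each triptolide library, though OAS1 and OAS2 had as few as 15 and 23 counts in a library. For OAS3 over OAS2 the gap was narrow, with 7.08 in untreated replicate 1 and 7.18 in triptolide replicate 3.

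The ratio of IFITM1 to IFITM2 went from 0.526 ± 0.0209 to 0.749 ± 0.0677 (log2 difference 0.51), and that of IFITM1 to IFITM3 from 0.246 ± 0.00892 to 0.344 ± 0.018 (0.49). These ratios were steadier between libraries than the CPM of the genes themselves. They rest on the split of counts among the IFITM genes, which is uncertain. The ratio of IFIT1 to IFIT5 went from 1.06 ± 0.134 to 1.30 ± 0.0549 (0.30), and that of PARP9 to PARP14 from 0.939 ± 0.181 to 0.573 ± 0.0663 (-0.70). The ratio of PARP9 to DTX3L, the pair with the shared promoter match, overlapped between groups (0.487 ± 0.0657 and 0.572 ± 0.0472; exact permutation p = 0.2). MX1 over MX2 and HERC5 over HERC6 overlapped as well (exact permutation p = 0.8 for each).

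**Figure D3:**
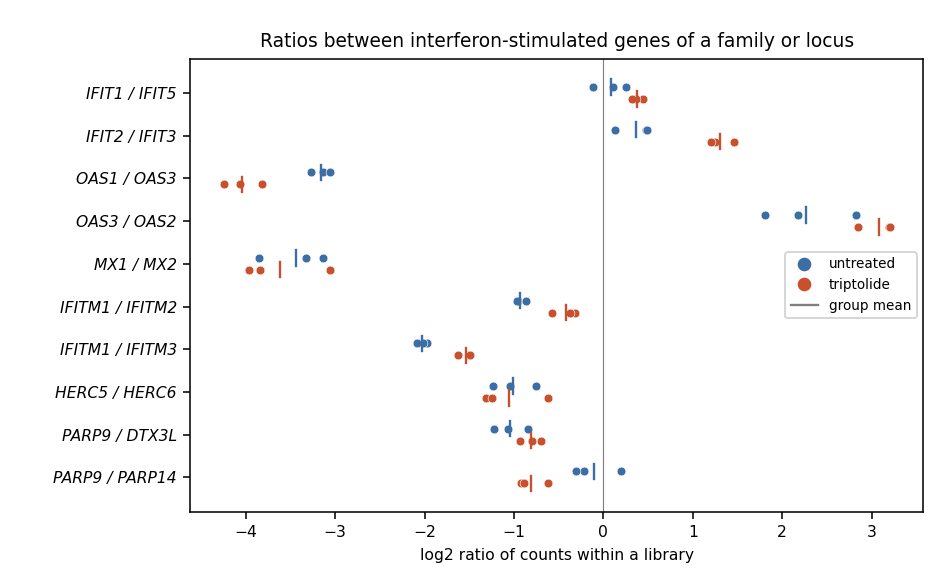
Log2 ratio of the counts of 2 genes of a family or locus within each library for the 10 pairs with at least 10 counts throughout, with points for libraries and ticks for group means. Untreated and triptolide points are apart in 7 pairs, farthest for IFIT2 over IFIT3, and overlap for MX1 over MX2, HERC5 over HERC6 and PARP9 over DTX3L.

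The rest of the interferon pathway was read from 5 further lists with 121 genes, of which 104 had a row and 81 were tested. Among the 81, 5 rose (6.17%, against 10.0% of all tested genes) and 3 fell (3.70%, against 5.82%), with a median log2 change of 0.04. Of 21 interferon ligands 7 had a row and none could be tested, since their counts over the 6 libraries were between 1 and 9. IFNB1, the interferon that most cell types make first, had 2 counts untreated and 0 with triptolide, and IFNL1, a type III interferon, had 4 and 5.

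Of the receptors, JAK kinases and STATs, 9 of 11 were tested, and edgeR, DESeq2 and limma-voom each called 0 in either direction (1 higher and 0 lower at an unadjusted p under 0.05 with each). The receptor chain IFNAR1 was at 65.8 ± 7.66 CPM untreated and 63.9 ± 9.83 CPM with triptolide, and its partner IFNAR2 at 1.06 ± 0.28 and 0.815 ± 0.298 CPM (edgeR adjusted p = 0.897 and 0.557). The kinase JAK1 was at 76.1 ± 10.9 and 78.8 ± 9.31 CPM (edgeR adjusted p = 0.872). TYK2, the kinase bound to IFNAR1, was at 142, 122 and 141 CPM untreated and at 248, 156 and 169 CPM with triptolide, higher in every triptolide library with replicate 1 far above the rest, and did not pass (edgeR adjusted p = 0.1, and 0.0457 without triptolide replicate 2). STAT3, the most abundant of the list by count, was at 293 ± 27.4 and 245 ± 7.44 CPM (edgeR adjusted p = 0.268).

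Of 14 tested genes of nucleic acid sensing and interferon induction 1 rose. MYD88, the adaptor of most Toll-like receptors, was at 10.1, 12.0 and 9.75 CPM untreated and at 17.9, 16.5 and 15.6 CPM with triptolide. It was 1.57-fold higher (log2 change 0.65 ± 0.18, SE; edgeR adjusted p = 0.0262) with no overlap. MYD88 lost its call with untreated replicate 1, 2 or 3 left out (edgeR adjusted p = 0.11, 0.0651 and 0.0679) with triptolide replicate 3 left out (0.063) and on the ribosomal protein scaling (log2 change 0.88, 0.0693).

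Of 15 genes that restrain interferon signalling 1 rose and 3 fell. PTPN6, the phosphatase SHP-1, known best from blood cells, was at 0.393, 0.72 and 0.496 CPM untreated and at 4.35, 2.49 and 2.56 CPM with triptolide. Each triptolide library was well above the untreated ones, and the fitted change was 5.70-fold (log2 change 2.51 ± 0.35, SE; edgeR adjusted p = 0.000707). Leukocyte markers and erythroid markers also summed higher with triptolide (erythroid 0.716 to 2.02 CPM untreated and 7.88 to 18.7 CPM with triptolide), and their part in the change of PTPN6 was not tested. PTPN2, a phosphatase of JAK1, fell from 46.3 ± 3.94 to 28.5 ± 6.6 CPM, a log2 change of -0.70 ± 0.19 (SE; edgeR adjusted p = 0.0293). IRF2BP2, a corepressor bound to IRF2, fell from 81.1 ± 4.57 to 53.5 ± 5.57 CPM (-0.60 ± 0.16, SE; edgeR adjusted p = 0.0234). PIAS3, an inhibitor of STAT3, fell from 45.6 ± 3.06 to 30.8 ± 1.58 CPM (-0.57 ± 0.16, SE; edgeR adjusted p = 0.0301). These 3 genes kept their direction but lost the call in edgeR without untreated replicate 2 (adjusted p = 0.079, 0.082 and 0.113) or without triptolide replicate 3 (0.0851, 0.0957 and 0.124). PTPN2 also lost it without untreated replicate 1 or 3 (edgeR adjusted p = 0.0535 and 0.0749), IRF2BP2 without the same libraries (0.0701 and 0.0501) and PIAS3 without untreated replicate 1 or triptolide replicate 2 (0.128 and 0.0786). On the ribosomal protein scaling none of PTPN2, IRF2BP2 and PIAS3 passed (edgeR adjusted p = 0.36, 0.469 and 0.547).

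Of 57 further interferon-inducible genes outside the 42, 43 were tested, 3 rose and none fell in edgeR (7 higher and 1 lower at an unadjusted p under 0.05), with a median log2 change of 0.08. SLFN5, a Schlafen protein, was at 4.88, 4.54 and 3.08 CPM untreated and at 11.3, 14.6 and 16.3 CPM with triptolide. HELZ2, a helicase and nuclear receptor coactivator, was at 86.1, 76.3 and 70.9 CPM untreated and at 245, 124 and 162 CPM with triptolide. DDX60L, an RNA helicase relative, was at 6.06, 6.09 and 5.34 CPM untreated and at 6.61, 11.4 and 12.4 CPM with triptolide. The groups were apart in all 3 genes, by a narrow gap in DDX60L, where triptolide replicate 1 was close to the untreated libraries. SLFN5 was 3.39-fold higher (edgeR adjusted p = 0.000492), HELZ2 2.27-fold (0.00465) and DDX60L 1.75-fold (0.041). SLFN5 and HELZ2 passed under all 15 alternatives and PTPN6 under the 14 that tested it, its mean being below 5 CPM. DDX60L did not pass in edgeR without untreated replicate 1, 2 or 3 (adjusted p = 0.0873, 0.102 and 0.11) or without triptolide replicate 2 or 3 (0.0838 and 0.163), nor on the ribosomal protein scaling (0.0548) or in limma-voom (0.0566). EIF2AK2, which encodes the kinase PKR, was at 86.4, 83.6 and 68.2 CPM untreated and at 37.9, 79.4 and 77.2 CPM with triptolide (edgeR adjusted p = 0.463), only replicate 1 being low. ADAR, an RNA-editing enzyme with an inducible isoform, was at 409 ± 78.6 and 420 ± 31.7 CPM (edgeR adjusted p = 0.909).

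**Figure D4:**
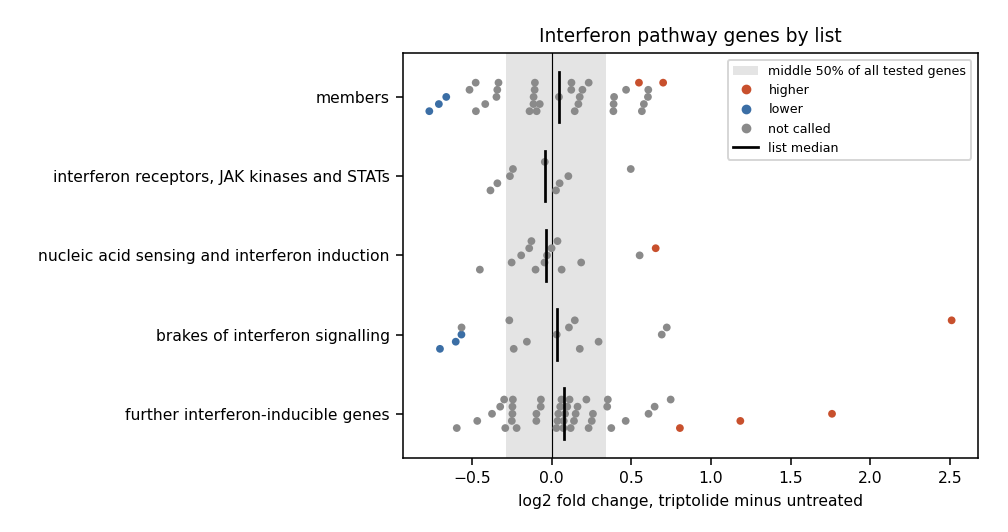
Log2 fold change, triptolide minus untreated, of the tested interferon-stimulated genes and of 4 further pathway lists, 1 point per gene, with list medians as black ticks and the range between the quartiles of all tested genes shaded. The medians lie between -0.04 and 0.08, and PTPN6 at 2.51, SLFN5 at 1.76 and HELZ2 at 1.18 stand to the right of the interferon-stimulated genes.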

How the data were processed

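Per the labels' protocols, polyadenylated RNA was read as 150 bp pairs, and the labels do not assign libraries to either of the sequencer models named. The values are whole-number counts per Ensembl gene as deposited by the authors, with no normalization visible in the values. HISAT2 and featureCounts are named, without versions, per the submitters' processing notes. Not given in the sources used here are the build, annotation, strand setting and handling of multi-mapped reads. Counts of near-identical or overlapping genes are therefore uncertain.

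Gene symbols were matched to 35710 of 35716 identifiers. Genes were kept with filterByExpr (15202), given TMM factors and fitted over all 6 libraries by edgeR's quasi-likelihood functions glmQLFit and glmQLFTest (version 4.0.16, R 4.3.3), triptolide against untreated. Benjamini-Hochberg adjustment was over all genes tested, with calls at an adjusted p under 0.05. CPM used the TMM-scaled library size, and standard errors came from the fold change and its F statistic. On simulated counts the test recovered 14% of genes changed 1.5-fold, 78% at 2-fold, 96% at 3-fold and 100% at 4-fold, with 3 false calls among 14453 genes tested. Changes near 1.5-fold were thus often missed in the simulation. The changed genes were drawn from those with an untreated mean above 2 CPM. Of the tested interferon-stimulated genes, IRF7, OAS1, OAS2, MX1 and IFI44 were below that, so the rates do not cover them. Only 50 genes were changed at each fold, a smaller share than the 15.9% called in the data. The adjusted threshold was therefore stricter there, and recovery in the data may differ.

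Alternatives were other scalings (RLE, library totals, 78 ribosomal protein genes), dropping the low-count filter, keeping only genes averaging 5 CPM or more, limma-voom 3.58.1, DESeq2 1.42.0, a replicate block, a GC offset per library (99.2% of tested genes had a GC value) and leaving out each library. The rule for named genes took every member, with values per library for called members and for others at a mean of at least 5 CPM. From each pathway list it took all called genes, or the most abundant where none passed, plus 7 fixed genes, 1 of which is not reported here. The members and lists were chosen with earlier results of these data known, and no list was tested as a set.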

Additional observations from a re-analysis of the deposited data

How the results depend on the processing

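Limits first: with 3 libraries a group, changes under 2-fold sit near the threshold, and the 12 tested genes below 5 CPM and the 7 untested ones carry little information. The calls of SLFN5 and HELZ2 held in all 15 alternatives and that of PTPN6 in the 14 that tested it, and none of the 5 called interferon-stimulated genes reversed direction in any of them. The causes of the differences listed here were not tested.

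With library totals alone, 1 pathway gene fell, PTPN2 and PIAS3 missing the threshold (edgeR adjusted p = 0.0581 and 0.0586), and the median log2 change of all tested genes was 0.061, with IFNAR1 at 0.024. Scaling on ribosomal protein genes gave 125 genes lower in all, 0 lower interferon-stimulated genes, 3 higher and 0 lower pathway genes, a median of 0.27 for the interferon-stimulated genes and one of 0.23 for all genes. In that scaling IRF9 (0.15), DHX58 (0.15), IFIT5 (0.10), MX1 (0.095), ISG15 (0.18), USP18 (0.12), PARP9 (0.12) and IFNAR1 (0.17), none of them called, had a positive sign, each less than the shift of the median. Without the low-count filter the medians were -0.092 for the interferon-stimulated genes and 0.13 for all genes. A mean of at least 5 CPM left 23 interferon-stimulated genes, 583 genes higher and 337 lower in all, 1 lower interferon-stimulated gene, 0 lower pathway genes, a median of 0.21 and IFNAR1 at 0.038, and IRF2 (edgeR adjusted p = 0.066), OASL (0.0713), PTPN2 (0.0701), IRF2BP2 (0.0567) and PIAS3 (0.0759) did not pass. With the GC offset 2280 genes (15.1%) rose and 1489 (9.88%) fell in all, 4 interferon-stimulated genes rose (with IFITM1 and PARP14 added) and 4 fell (with IFI35 added), 10 pathway genes rose and 3 fell, TYK2 among the former, the median of all genes was 0.040, and IFIT5 (0.10), PARP9 (0.012) and IFNAR1 (0.098) had a positive sign. The share of promoters with the core became 18.75% and 34.375% with the longer and the shorter spacing.

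Replicate numbers did not pair the libraries (correlations of deviations 0.03, -0.04 and -0.44 for equal numbers), and the block on them is given only here: 0 interferon-stimulated genes rose and 2 fell, IFIT3 and OASL (edgeR, 4 higher and 4 lower at an unadjusted p under 0.05), and 4 pathway genes rose and 1 fell, where 10.0% of all tested genes rose and 5.63% fell. Under the block STAT2 (edgeR adjusted p = 0.113), ISG20 (0.0517), IRF2 (0.0626), MYD88 (0.0544), IRF2BP2 (0.0628) and PIAS3 (0.0958) did not pass.

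Leaving out each library in turn gave 953 to 1580 genes higher and 407 to 1034 lower in all, 0 to 2 interferon-stimulated genes higher and 0 to 3 lower, and 3 to 6 pathway genes higher and 0 to 3 lower. The median log2 change ranged from -0.0064 to 0.061 for the interferon-stimulated genes and from -0.0026 to 0.014 for all genes. Genes whose sign turned, none of them called, were IRF9 (-0.32 to 0.036), DHX58 (-0.24 to 0.023), IFIT1 (-0.010 to 0.35), IFIT5 (-0.30 to 0.090), MX1 (-0.50 to 0.10), MX2 (-0.0029 to 0.13), IFITM2 (-0.12 to 0.27), IFITM3 (-0.075 to 0.29), ISG15 (-0.29 to 0.023), HERC5 (-0.043 to 0.45), IFNAR1 (-0.14 to 0.091), JAK1 (-0.073 to 0.16) and ADAR (-0.12 to 0.13), and for HERC5 over HERC6 the log2 ratio difference ran from -0.27 to 0.080.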

Other observations

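Within their groups many genes, the interferon-stimulated ones among them, ranked the libraries in 1 of 2 ways. Of the 35 tested genes, 11 (31.4%, and 22.5% of all tested genes) had their highest level both in untreated replicate 3 and in triptolide replicate 1: DHX58, OASL, IFITM1, IFITM2, IFITM3, BST2, ISG15, ISG20, TRIM21, IFI6 and IFI35. Another 9 (25.7%, and 20.3% of all tested genes) had their lowest level in both of these libraries: IFIH1, IFIT2, IFIT5, MX1, MX2, PARP9, DTX3L, PARP14 and IFI44. The first set had a median GC content of 56.1% and a median merged exon length of 1543 bases, and the second 43.3% and 5868 bases. Over all tested genes the median GC content was 58.7% for genes highest in both libraries and 41.4% for genes lowest in both, and the median lengths were 3536.5 and 6491 bases, so the same contrast is present over all tested genes. This pattern was seen in the data and not sought in advance, and what produced it was not tested.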
